A study of Mus musculus with 64 samples.

Results

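The microglia genes examined here are 34 genes that mark microglia or carry out their main functions, taken by gene symbol and not by their counts. Each of the 34 was found among the 55401 genes of the count table, and all 34 were among the 18971 genes with enough reads to be tested. By role they comprised 9 homeostatic genes of resting microglia (8 surface proteins and the secreted Olfml3), 4 receptors for growth factors, TGF-beta and apoptotic cells, the 3 chains of C1q, 6 genes of Trem2-Tyrobp and Fc receptor signalling, 3 lysosomal genes, 3 pattern recognition genes, 3 pan-leukocyte or cytoskeletal genes and 3 transcription factors.

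Bulk mRNA sequencing was performed on the prefrontal cortex (PFC, called frontal cortex in the sample labels) and the whole hypothalamus of 32 male C57BL/6J mice fed chow. The mice were 10 weeks old at the start, were housed in groups, and each got 1 intraperitoneal dose of either 3 mg/kg psilocybin, a serotonergic psychedelic, or isotonic saline, the control. Tissue was taken in the morning, 3 h or 4 weeks after the injection, which gave 8 groups by region, treatment and harvest, and both regions came from the same animals. Of the 64 samples, 2 held almost no reads and were left out (saline at 3 h in the hypothalamus, replicate 2, and psilocybin at 4 weeks in the PFC, replicate 3), so that groups had 8 libraries except for 7 in those groups. The 62 libraries held 8061033 to 70361839 counted reads, with a median of 18287978.5. RNA was extracted in 4 pools: in each region, cages 1 to 4 formed a first pool and cages 5 to 8 a second, with every treatment and time in both, so that pool and cage cannot be told apart.

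Microglia are the resident macrophages of the brain, and their survival depends on signals through the receptor Csf1r. They survey their surroundings with receptors for nucleotides and fractalkine, tag synapses and debris with C1q, and take up dying cells through receptors such as Mertk and Trem2. Their identity is maintained by TGF-beta and by transcription factors that include PU.1 (encoded by Spi1), Irf8 and Sall1. Several of the 34 genes are also active elsewhere in the brain: border-associated macrophages share many of them, astrocytes also make Mertk, and Tgfbr1 is made by many cell types. In pieces of whole tissue, fewer microglia and less RNA per microglial cell cannot be told apart.

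Because PU.1 is encoded by a member of the list, the promoters of the members were searched for a PU.1-type motif, GAGGAAGT, on both strands (ACTTCCTC when it lies on the opposite strand). The RefSeq table (GRCm38.p6) held a promoter for 26 of the 34 members, as 250 bases before to 50 bases after the start site. Of these 26, 4 held the motif (15.4%), compared with 997 of 27025 gene symbols with a promoter (3.69%). The 4 promoters are shown because they carry the motif, from 220 bases before to 20 bases after the start site, 5′ to 3′ on the strand of the gene, with the motif in capitals.
Inpp5d promoter, chr1:87620092-87620331, plus strand: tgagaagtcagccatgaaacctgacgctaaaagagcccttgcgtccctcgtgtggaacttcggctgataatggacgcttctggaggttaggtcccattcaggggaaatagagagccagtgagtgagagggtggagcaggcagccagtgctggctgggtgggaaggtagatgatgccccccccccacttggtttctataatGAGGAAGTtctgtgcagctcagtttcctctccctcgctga
Ctss promoter, chr3:95526566-95526805, plus strand: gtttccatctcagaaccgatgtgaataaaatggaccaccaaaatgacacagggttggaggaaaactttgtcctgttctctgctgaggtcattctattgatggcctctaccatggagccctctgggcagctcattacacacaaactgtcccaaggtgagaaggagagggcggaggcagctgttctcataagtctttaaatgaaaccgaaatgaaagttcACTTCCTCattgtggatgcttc
Cd53 promoter, chr3:106790130-106790369, minus strand: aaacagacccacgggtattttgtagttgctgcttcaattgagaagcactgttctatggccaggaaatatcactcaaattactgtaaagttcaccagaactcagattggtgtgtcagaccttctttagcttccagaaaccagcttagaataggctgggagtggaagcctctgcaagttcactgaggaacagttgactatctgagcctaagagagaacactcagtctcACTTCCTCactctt
C1qc promoter, chr4:136892895-136893134, minus strand: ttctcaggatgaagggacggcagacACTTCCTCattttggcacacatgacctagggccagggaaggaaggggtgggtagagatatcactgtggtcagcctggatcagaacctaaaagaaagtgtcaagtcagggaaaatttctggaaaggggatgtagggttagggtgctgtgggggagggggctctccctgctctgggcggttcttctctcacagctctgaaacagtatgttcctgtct

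In Inpp5d, which encodes a phosphatase that restrains signalling below Fc receptors and Trem2, the motif began 20 bases before the start site and was on the printed strand. In the other three it was on the opposite strand: next to the start site in Ctss (cathepsin S, a lysosomal protease) and Cd53 (a leukocyte tetraspanin), and 195 bases before it in C1qc. A match of letters is a description of these windows and not evidence of binding.

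Per unit of gene length, the levels of the 34 genes spanned a wide range. Ctss had the highest mean over all 62 libraries, 224.5 TPM (reads per length of the gene, scaled to a sum of 1000000 per library). It was followed by the C1q chains C1qb (198.0 TPM) and C1qa (181.9 TPM), by Tyrobp, the signalling adaptor of Trem2 (86.4 TPM), by Csf1r (85.4 TPM) and by C1qc (83.2 TPM). The lowest means were those of Ptprc, the leukocyte phosphatase CD45 (1.17 TPM), Irf8 (2.85 TPM), the bacterial lipoprotein receptor Tlr2 (2.91 TPM) and Spi1 (4.16 TPM). Genes of high and low level were present within the same role: Tyrobp and its partner Trem2 (10.5 TPM) stood at a ratio of 6.44 to 11.5 in single libraries, with a median of 8.20.

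The 3 chains of C1q assemble into 1 complex, and their proportions varied between libraries. C1qa to C1qb was 0.681 to 1.10 in TPM (median 0.927), and C1qc to C1qb was 0.306 to 0.505 (median 0.416). Their genes lie side by side on the minus strand of chromosome 4, in the order C1qb (chr4:136880129-136886187), C1qc (chr4:136889804-136893065) and C1qa (chr4:136895917-136898803, GRCm38). Between replicates the least variable members were Laptm5, a lysosomal membrane protein, and Csf1r, with biological coefficients of variation of 0.125 and 0.128. Gpr34, a lysophosphatidylserine receptor, and Cd14, the co-receptor for lipopolysaccharide, varied most (0.302 and 0.312). Among all tested genes these values covered the 26.3 to the 78.9 percentile.

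**Figure D1:**
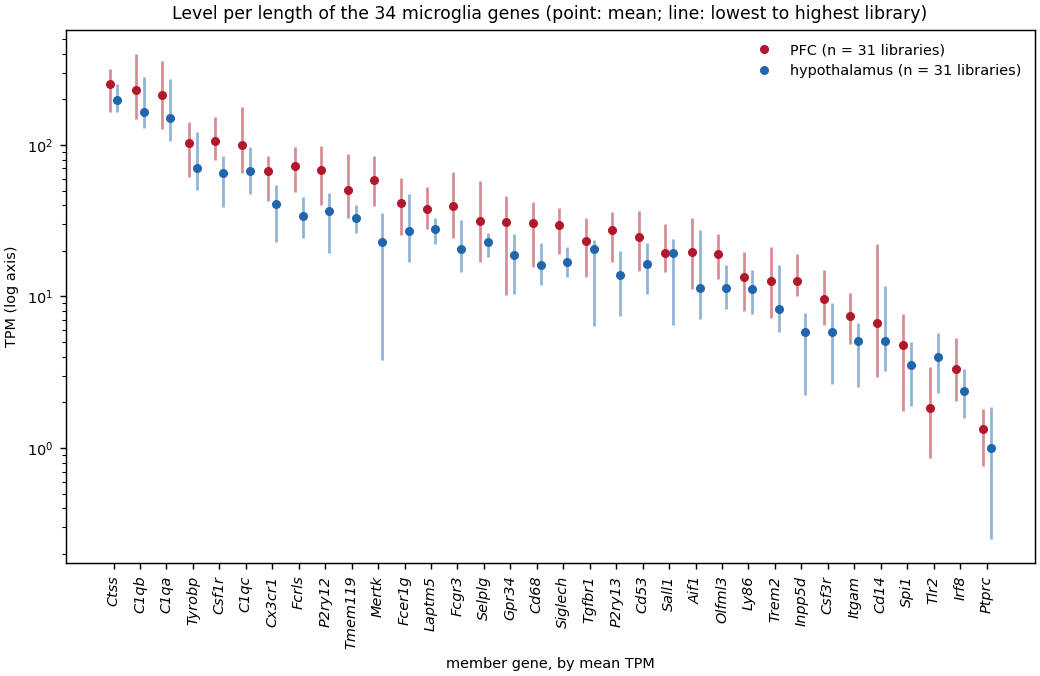
Level of the 34 microglia genes in TPM (log axis), ordered by their mean, with the mean of 31 PFC libraries in red and of 31 hypothalamus libraries in blue; lines run from the lowest to the highest library. Ctss, C1qb and C1qa are at the top and Ptprc at the bottom, and the PFC mean lies above that of the hypothalamus for all genes but Tlr2 and Sall1.

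A library stood apart from its group: replicate 5 of psilocybin at 4 weeks in the hypothalamus. It had the lowest weight of all 62 in the voom procedure, which gives each library a quality weight (0.0276), while the next lowest was 0.12 (replicate 7 of psilocybin at 3 h in the PFC). It was above all 7 other libraries of its group for 16 of the 34 members and below all of them for 8. Results that rest on it are given with and without it, and its values are described at the end.

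The main question of the design was whether 1 dose of psilocybin changed transcripts in the PFC or hypothalamus, early or late. No microglia gene was called different between psilocybin and saline in any of the 4 comparisons (edgeR's quasi-likelihood test, Benjamini-Hochberg adjusted p under 0.05). Among all tested genes, 0.0105% were called in the PFC at 3 h and 0% in each of the other three, so a count of 0 members was near the background. DESeq2 called 0 members in all 4 comparisons as well, and 0% to 0.1% of all genes it tested. At an unadjusted p under 0.05, edgeR gave 0 members in the PFC at both times and in the hypothalamus at 3 h, and 3 in the hypothalamus at 4 weeks (8.82% of the members), while the shares of all tested genes were 7.23% and 2.4% in the PFC at 3 h and 4 weeks and 1.78% and 9.61% in the hypothalamus. The 3 members at 4 weeks were thus near the background. The libraries of the 2 treatments overlapped for all 34 members in each comparison, while 0.0105% of all tested genes did not overlap in the PFC at 3 h, 0.0474% in the hypothalamus at 3 h and 0% in either region at 4 weeks. The voom procedure, which uses the model of the study's methods on all 62 libraries, called 3 members in the PFC at 3 h and 0 in the rest. The study also dropped a library rich in immune and wound healing transcripts, which its methods do not name, so the input here is not the same as the study's.

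The intervals give the size of difference that the data allow. All 34 members had a 95% interval of the log2 fold change between -1 and 1 in each of the 4 comparisons, and intervals within -0.5 to 0.5 were found for 29 members in the PFC at 3 h, 31 in the PFC at 4 weeks, 29 in the hypothalamus at 3 h and 24 in the hypothalamus at 4 weeks. The median log2 fold change of the members was 0.01 (PFC, 3 h), -0.05 (PFC, 4 weeks), -0.0017 (hypothalamus, 3 h) and 0.05 (hypothalamus, 4 weeks), beside medians of all tested genes between -0.01 and 0.01. The sign of these medians depended on the setting in 3 of the 4 comparisons. The settings meant here are those other than leaving out each library in turn. The PFC median at 3 h was -0.175 within cages 1 to 4 and 0.203 within cages 5 to 8. The ranges over these settings were -0.0905 to 0.0267 in the hypothalamus at 3 h and -0.0616 to 0.0611 at 4 weeks. The PFC median at 4 weeks was below 0 in each of them (-0.0599 to -0.0163). The plot of the psilocybin effects shows these intervals gene by gene.

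**Figure D2:**
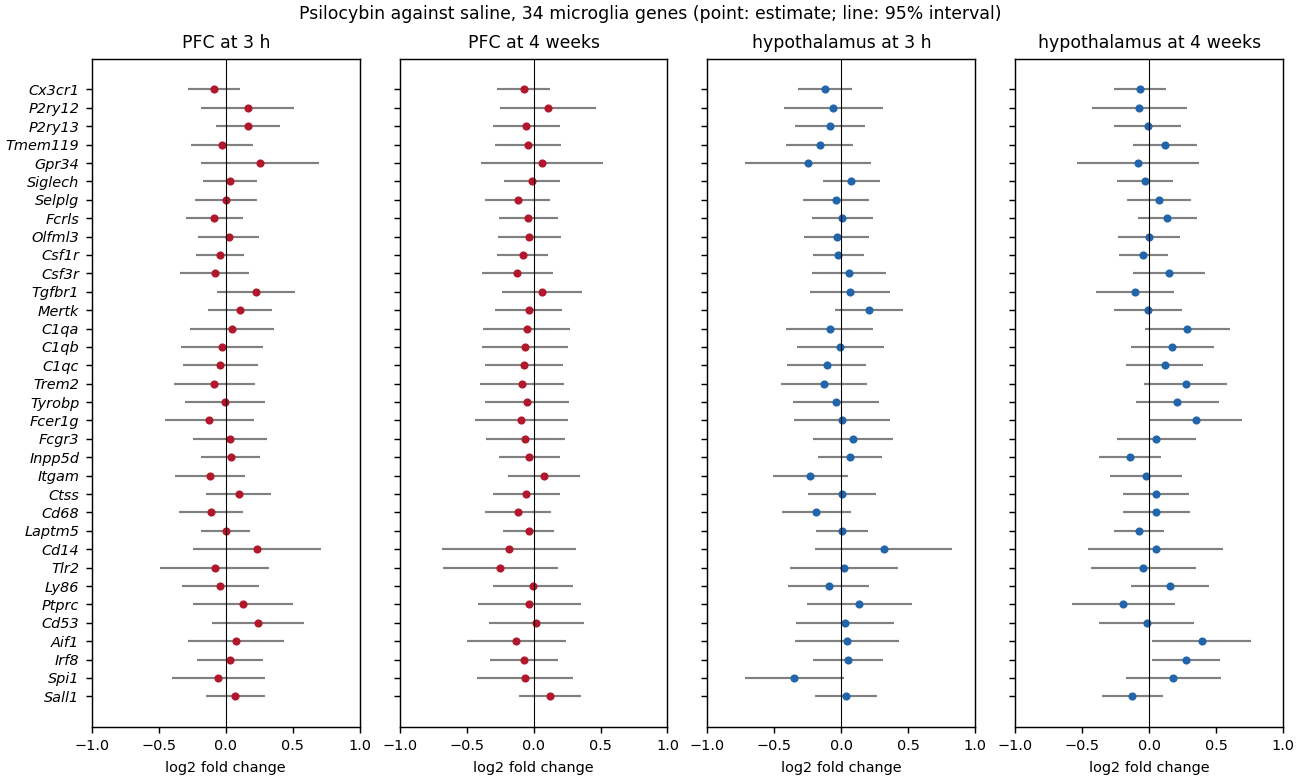
Log2 fold change of psilocybin over saline for the 34 microglia genes in 4 panels (PFC and hypothalamus, 3 h and 4 weeks), with points for the estimate and lines for the 95% interval. All intervals lie between -1 and 1; the estimates run from -0.35 (Spi1, hypothalamus at 3 h) to 0.39 (Aif1, hypothalamus at 4 weeks).

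In the PFC at 3 h, the member with the smallest p-value was Tgfbr1, the type I receptor that passes on the TGF-beta signal. Its level was 25.8, 42.2 and 59.8 CPM (read counts per 1000000, TMM-normalised) in the lowest, median and highest of the saline libraries and 25.2, 49.0 and 70.9 CPM after psilocybin. The groups overlapped over most of their range, and the log2 fold change was 0.23 (SE 0.14, adjusted p = 0.772). Cd53 was at 7.32, 11.7 and 19.7 CPM after saline and 7.36, 15.6 and 18.6 CPM after psilocybin, a log2 fold change of 0.24 (SE 0.17, adjusted p = 0.801). P2ry13, a receptor for ADP, was at 11.1, 18.7 and 25.8 CPM after saline and 16.7, 18.7 and 27.4 CPM after psilocybin, with the same median in both groups and a log2 fold change of 0.16 (SE 0.12, adjusted p = 0.809).

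With voom, quality weights and the animal correlation, 3 members were higher after psilocybin in the PFC at 3 h, where that procedure called 6.49% of all tested genes. These were Tgfbr1 (log2 fold change 0.44, SE 0.11, adjusted p = 0.0139), Cd53 (0.50, SE 0.14, adjusted p = 0.0246) and Gpr34 (0.61, SE 0.19, adjusted p = 0.0431). Replicate 7, the library of the second-lowest weight, was the lowest of the 8 psilocybin libraries for all 3 genes. It was at 25.2 CPM for Tgfbr1, 7.36 CPM for Cd53 and 6.14 CPM for Gpr34, against at least 42.9, 11.1 and 17.1 CPM in the other 7. The next lowest weights were those of saline replicates 3 (0.275), 5 (0.286) and 4 (0.323) of the same comparison. Saline replicate 3 was the highest saline library for Cd53 (19.7 CPM). It was at 58.0 CPM for Tgfbr1 and 28.2 CPM for Gpr34, against saline maxima of 59.8 and 29.8 CPM. The part of single libraries in the voom calls was not tested. Without psilocybin replicate 7 and the hypothalamus library that stands apart, edgeR gave 0.33 for Tgfbr1 (adjusted p = 0.0995) and 0.36 for Cd53 (adjusted p = 0.200). In this setting, chosen after seeing the data, 0 members were called beside 0.105% of all tested genes.

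At 4 weeks in the PFC the smallest p-values belonged to Tlr2, Sall1, a zinc finger factor that marks microglia among macrophages, and Selplg, the P-selectin ligand. Tlr2 was at 0.948, 1.52 and 2.61 CPM (lowest, median, highest) after saline and 1.06, 1.45 and 1.61 CPM after psilocybin (log2 fold change -0.25, SE 0.21, adjusted p = 1). Sall1 was at 21.3, 25.6 and 40.1 CPM after saline and 19.8, 29.6 and 43.8 CPM after psilocybin (0.12, SE 0.12, adjusted p = 1). Selplg was at 23.3, 34.5 and 44.2 CPM after saline and 19.7, 32.7 and 41.0 CPM after psilocybin (-0.12, SE 0.12, adjusted p = 1). The groups overlapped for all 3 genes.

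In the hypothalamus at 3 h the leading member was Spi1, at 2.00, 2.47 and 3.12 CPM after saline and 1.26, 2.15 and 2.54 CPM after psilocybin. The log2 fold change was -0.35 (SE 0.19, adjusted p = 1), the lowest estimate of all members in the 4 comparisons. Itgam, the alpha chain of complement receptor 3, was at 5.51, 6.93 and 7.75 CPM after saline and 4.47, 5.42 and 8.26 CPM after psilocybin (-0.23, SE 0.14, adjusted p = 1). Mertk, a receptor tyrosine kinase that mediates the uptake of apoptotic cells and myelin, was at 25.6, 28.0 and 38.6 CPM after saline and 30.04, 35.4 and 40.3 CPM after psilocybin (0.21, SE 0.13, adjusted p = 1). The libraries of the 2 treatments overlapped for all 3 genes.

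In the hypothalamus at 4 weeks, Irf8, Aif1 (the actin-binding protein Iba1) and Fcer1g (the shared chain of Fc receptors) had an unadjusted p under 0.05. Irf8 was at 2.68, 4.42 and 4.84 CPM after saline and 3.63, 4.98 and 5.94 CPM after psilocybin (log2 fold change 0.27, SE 0.13, adjusted p = 0.482). Aif1 was at 3.29, 4.45 and 5.27 CPM after saline and 3.42, 4.71 and 16.7 CPM after psilocybin (0.39, SE 0.19, adjusted p = 0.492). Fcer1g was at 3.89, 5.42 and 7.26 CPM after saline and 3.46, 6.39 and 16.6 CPM after psilocybin (0.35, SE 0.17, adjusted p = 0.506). The highest values of Aif1 and Fcer1g were those of replicate 5. Without it their log2 fold changes were 0.01 and 0.10, while that of Irf8 was 0.25.

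The leading genes of the remaining roles lay at similar levels after saline and psilocybin. Cx3cr1, the fractalkine receptor, had medians of 96.9 CPM (saline) and 88.4 CPM (psilocybin) in the PFC at 3 h and of 45.2 and 40.9 CPM in the hypothalamus at 3 h. At 4 weeks its medians were 90.7 and 89.6 CPM in the PFC and 49.8 and 47.5 CPM in the hypothalamus, and the groups overlapped in every case. Trem2, a lipid receptor of phagocytes, had medians between 16.7 and 20.3 CPM in the 4 PFC groups and between 8.63 and 10.7 CPM in the 4 hypothalamus groups. Cd68, a lysosomal glycoprotein, had medians between 9.50 and 11.5 CPM in the PFC and between 4.6 and 5.47 CPM in the hypothalamus.

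P2ry12 had group medians of 44.3 CPM after saline and 54.0 CPM after psilocybin in the PFC at 3 h, within libraries that ran from 26.7 to 77.9 CPM and from 31.7 to 75.7 CPM. At 4 weeks in the PFC its medians were 48.3 and 54.8 CPM. Csf1r had medians of 201.2 and 185.2 CPM in the PFC at 3 h and of 99.4 and 90.4 CPM in the hypothalamus at 3 h, with overlapping libraries in both. C1qa was at 30.2, 41.5 and 48.1 CPM after saline and 26.7, 33.3 and 47.2 CPM after psilocybin in the hypothalamus at 3 h, and its medians in the PFC were 71.4 and 69.5 CPM at 3 h and 58.3 and 61.7 CPM at 4 weeks.

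Whether the psilocybin effect differed between the regions or between the times was tested by interaction terms, and 0 members were called in any of the 4 interactions by edgeR, DESeq2 or voom. In edgeR the smallest adjusted p of a member was 0.737, for the difference between the regions at 4 weeks, 0% of all tested genes were called, and 1 member had an unadjusted p under 0.05 in 1 of the 4 (the difference between the times in the hypothalamus, with 5.27% of all tested genes, against 2.78% to 6.69% in the other three). Partner genes gave the same count: of 30 ligands, co-receptors and signalling partners of the members (such as Csf1, Il34, Cx3cl1, Tgfb1 and Gas6), 0 were called by edgeR after psilocybin in any comparison, and 3, 1, 0 and 0 had an unadjusted p under 0.05 in the PFC at 3 h and 4 weeks and the hypothalamus at 3 h and 4 weeks. The count of 0 held for 17 tested genes of disease-associated microglia, 11 of inflammatory cytokines and NF-kB and 14 of border-associated macrophages, with at most 2 at an unadjusted p under 0.05 in a comparison.

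Harvest time, in contrast, was accompanied by lower levels of a few members. In the PFC of saline mice, Tmem119, Mertk, Selplg and Fcgr3 were lower at 4 weeks than at 3 h, 4 of 34 members, against 4.72% of all tested genes called (2.39% lower). In the PFC of psilocybin mice the 4 genes were lower as well, together with Cd14 (5 of 34, against 5.96% of all tested genes, 2.70% lower). In the hypothalamus Mertk was the 1 member called, lower at 4 weeks in saline mice (0.685% of all tested genes called) and in psilocybin mice (1.16%). The animals taken at 4 weeks were also older at harvest, and age and time since the injection cannot be told apart. The saline and psilocybin comparisons use different mice throughout. Markers of other cells also differed in level between the times: the summed fibroblast and matrix genes had medians of 2571 CPM at 3 h and 1569 CPM at 4 weeks in the PFC of saline mice and of 2609 and 1423 CPM in psilocybin mice, with overlapping ranges (799.2 to 3917 and 1034 to 3048 CPM in saline, 1215 to 4854 and 1068 to 2926 CPM in psilocybin mice). By gene, edgeR called 0 of these 10 in either treatment. At an unadjusted p under 0.05 there were 0 and 3 of them, beside 18% and 20.4% of all tested genes. The part of fibroblasts in the members' differences was not tested.

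Mertk (chr2:128698956-128802894, plus strand) was the member with the most uniform difference. In the hypothalamus of saline mice it was at 25.6, 28.0 and 38.6 CPM (lowest, median, highest) at 3 h and at 15.6, 17.2 and 21.0 CPM at 4 weeks. After psilocybin it was at 30.04, 35.4 and 40.3 CPM at 3 h and at 6.59, 19.0 and 23.0 CPM at 4 weeks. The times did not overlap in either treatment group of the hypothalamus, which held for 0.859% (saline) and 0.348% (psilocybin) of all tested genes. The log2 fold changes were -0.79 (SE 0.13, adjusted p = 9.2e-05) and -1.003 (SE 0.13, adjusted p = 1.37e-07). The value of 6.59 CPM was that of replicate 5, and without it the difference after psilocybin was -0.87 (adjusted p = 9.02e-09).

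In the PFC, Mertk was at 63.0, 85.9 and 108.6 CPM at 3 h and 49.7, 61.4 and 65.7 CPM at 4 weeks in saline mice, and at 68.0, 93.1 and 111.1 CPM and 46.6, 56.8 and 69.8 CPM in psilocybin mice. The highest library at 4 weeks lay just above the lowest at 3 h in both, and in the PFC no member was free of overlap between the times (0.432% of all tested genes were in saline and 0.965% in psilocybin mice). The log2 fold changes were -0.52 (SE 0.12, adjusted p = 0.00481) and -0.66 (SE 0.13, adjusted p = 0.000416). Since astrocytes also make Mertk, the 10 astrocyte markers were set beside it: in the PFC 1 was lower at 4 weeks in saline mice (Aldoc, -0.34) and 3 in psilocybin mice (Fgfr3, -0.35, Aldoc, -0.39, and Aldh1l1, -0.35), while 0 of 10 were called in the hypothalamus. The summed astrocyte markers were at 6456 to 9964 CPM at 3 h and 5982 to 9697 CPM at 4 weeks in the PFC of saline mice, and at 4427 to 6030 and 4580 to 5993 CPM in the hypothalamus. Their part in the Mertk result was not tested.

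Tmem119, a membrane protein that marks resident microglia, and Selplg are close neighbours on the minus strand of chromosome 5 (chr5:113793729-113800516 and chr5:113818536-113832644). In the PFC of saline mice Tmem119 was at 22.7, 41.6 and 58.5 CPM at 3 h and 22.4, 27.1 and 35.6 CPM at 4 weeks (log2 fold change -0.53, SE 0.12, adjusted p = 0.0027). After psilocybin it was at 29.9, 40.1 and 49.4 CPM and then 20.7, 29.6 and 33.7 CPM (-0.55, SE 0.12, adjusted p = 0.0026). Times overlapped in both treatments, with the upper part of the 3 h libraries above every library at 4 weeks.

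Selplg was at 28.6, 48.6 and 59.2 CPM at 3 h and 23.3, 34.5 and 44.2 CPM at 4 weeks in the PFC of saline mice (-0.43, SE 0.12, adjusted p = 0.0181). After psilocybin it was at 32.8, 44.0 and 71.0 CPM and then 19.7, 32.7 and 41.0 CPM (-0.55, SE 0.12, adjusted p = 0.00219). Fcgr3, an activating low-affinity IgG receptor (chr1:171051174-171064935), was at 12.6, 23.9 and 34.3 CPM and then 12.3, 16.6 and 21.6 CPM in saline mice (-0.51, SE 0.14, adjusted p = 0.0201). In psilocybin mice it was at 17.1, 23.8 and 32.7 CPM and then 11.5, 16.3 and 21.3 CPM (-0.61, SE 0.15, adjusted p = 0.00646). Selplg and Fcgr3 both lost their calls in saline mice when the fit had no pool term. Closely similar Fc receptor genes lie beside Fcgr3, so its reads may be shared with them and its values are less certain.

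Cd14 was at 2.18, 3.56 and 11.5 CPM at 3 h and 1.58, 2.38 and 4.30 CPM at 4 weeks in the PFC of psilocybin mice (-0.79, SE 0.25, adjusted p = 0.0468). The value of 11.5 CPM was that of replicate 5 at 3 h, and without it the log2 fold change was -0.50 (adjusted p = 0.23). With the cage as a replicate block it was -0.76 (adjusted p = 0.0723), so the call on Cd14 did not hold in that paired analysis.

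**Figure D3:**
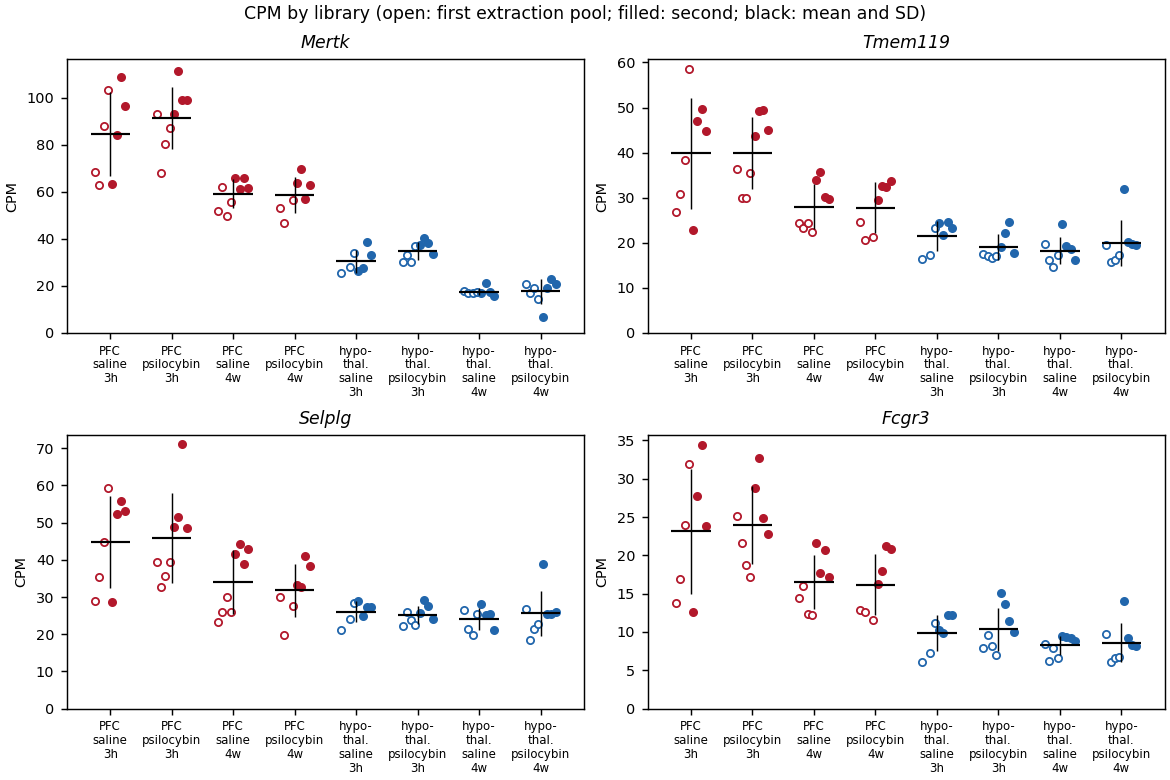
CPM of Mertk, Tmem119, Selplg and Fcgr3 in each library of the 8 groups (open symbols, first extraction pool; filled symbols, second), with the mean and SD in black. Mertk is lower at 4 weeks than at 3 h in all 4 pairs of groups, without overlap in the hypothalamus, while the other 3 genes are lower at 4 weeks in the PFC.

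Most other members were not called by edgeR. In the PFC the C1q chains had log2 fold changes of -0.28 to -0.41 in saline mice and -0.37 to -0.45 in psilocybin mice, with the smallest adjusted p-values at 0.0974 and 0.0714, both for C1qc. The voom procedure called C1qb lower in saline mice (adjusted p = 0.0464) and C1qa, C1qb and C1qc lower in psilocybin mice (adjusted p = 0.0326, 0.00209 and 0.0078), among 5 and 13 members, with 5.98% and 19.1% of all tested genes called. Cx3cr1 (-0.07 and -0.06), P2ry12, the ADP receptor that guides microglial processes (0.02 and -0.04), Trem2 (0.0037 and 0.0045) and Spi1 (-0.08 and -0.09) differed little between the times. Over all 34 members the median log2 fold change was -0.17 in saline and -0.24 in psilocybin mice in the PFC, and 0.03 and 0.16 in the hypothalamus, beside medians between -0.01 and 0.03 for all tested genes. The saline median in the PFC was -0.36 within cages 1 to 4 and 0.04 within cages 5 to 8, so its sign depended on the cages. When 1 library of the compared groups was left out, it ranged from -0.25 (without replicate 5 at 3 h) to -0.08 (without replicate 4 at 3 h). The psilocybin median in the hypothalamus was 0.05 without replicate 5 at 4 weeks.

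The PFC counts depended on the extraction pool and on single libraries. Within cages 1 to 4, 7 members were lower at 4 weeks in saline mice and 3 in psilocybin mice, and within cages 5 to 8 there were 0 in both. Of all tested genes, edgeR called 5.33% (saline) and 4.23% (psilocybin) within cages 1 to 4 and 0.232% and 0.559% within cages 5 to 8. Mertk had values of -0.56 and -0.46 in the first and second set of cages in saline mice and of -0.66 in both sets in psilocybin mice, whereas Selplg in saline mice was at -0.67 and -0.18. In the hypothalamus Mertk was at -0.755 and -0.82 in saline mice and at -0.88 and -1.12 in psilocybin mice. The count of 4 in saline mice became 2 without replicate 4 and 8 without replicate 5 of saline at 3 h in the PFC, with 2.54% and 7.28% of all tested genes called. Leaving the hypothalamus library that stands apart out of the common fit gave 7 members in saline and 9 in psilocybin mice of the PFC, with C1qb and C1qc among them, and 8.25% and 11.3% of all tested genes.

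A difference of the time effect between PFC and hypothalamus was tested directly, a term added after seeing the data, and 0 members were called by edgeR, DESeq2 or voom in either treatment (edgeR called 0.0369% of all tested genes in saline and 0.116% in psilocybin mice). At an unadjusted p under 0.05 there were 4 members in saline and 15 in psilocybin mice, beside 5.84% and 16.1% of all tested genes, with Tmem119 first (-0.62, SE 0.17, adjusted p = 0.136). Lower levels of these members in the PFC are thus not shown to be particular to that region. Among the 30 partner genes, 2 were lower at 4 weeks in the PFC of saline mice: Smad3, a mediator of TGF-beta signalling (-0.45, adjusted p = 0.00187), and the kinase Lyn (-0.37, adjusted p = 0.0366). None of the 30 was called in the other three comparisons (11 had an unadjusted p under 0.05 in the PFC of psilocybin mice), and 0 of 17 disease-associated genes were called in any of the 4 (at most 5 at an unadjusted p under 0.05).

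Between regions nearly all members differed. In the mean of the 4 treatment and time groups, 33 of the 34 members were higher in the PFC than in the hypothalamus and 1, Tlr2, was lower. Among all tested genes 76.2% were called, 39.6% higher and 36.5% lower in the PFC. The median log2 fold change was 0.76 for the members and 0.02 for all tested genes. Their summed level was 851.9 to 1606 CPM in the 31 PFC libraries (median 1279) and 560.8 to 978.5 CPM in the 31 hypothalamus libraries (median 708). The 2 regions were extracted in separate pools, and region and pool cannot be told apart.

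Mertk differed most, at 46.6, 65.7 and 111.1 CPM in the PFC (lowest, median, highest) and 6.59, 23.0 and 40.3 CPM in the hypothalamus (log2 fold change 1.58, SE 0.06, adjusted p = 1.81e-31). Inpp5d, whose promoter is printed above, was at 21.9, 26.0 and 41.9 CPM and at 6.81, 11.4 and 15.2 CPM (1.29, SE 0.06). Csf1r was at 126.0, 174.2 and 256.1 CPM and at 74.5, 96.4 and 119.4 CPM (0.88, SE 0.05). For these 3 members (8.82% of 34) no library of the PFC overlapped the hypothalamus in CPM, which held for 11.3% of all tested genes. In TPM the regions overlapped for Csf1r, at 79.8 TPM in the lowest PFC library and 83.9 TPM in the highest hypothalamus library. Mertk and Inpp5d were free of overlap on both scales.

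The 9 homeostatic genes were all higher in the PFC, by log2 fold changes of 0.60 to 1.27. Fcrls, an Fc receptor-like scavenger protein, led them (1.27, SE 0.06), at 31.2, 49.8 and 66.4 CPM in the PFC and 13.97, 20.8 and 33.5 CPM in the hypothalamus. P2ry13 (1.17, SE 0.06) was at 11.1, 19.8 and 28.6 CPM and at 6.05, 8.59 and 12.4 CPM. Both are surface receptors, as is Siglech, a sialic acid-binding lectin, which was at 18.5, 28.4 and 39.2 CPM and at 11.5, 14.2 and 19.9 CPM (0.99, SE 0.05). P2ry12 (1.10, SE 0.09) was at 25.9, 47.9 and 77.9 CPM in the PFC and 17.3, 23.9 and 31.2 CPM in the hypothalamus. Cx3cr1 was at 55.3, 90.1 and 114.8 CPM and at 34.03, 45.5 and 60.6 CPM (0.91, SE 0.05). Tmem119 was at 20.7, 32.4 and 58.5 CPM and at 14.6, 19.0 and 31.97 CPM (0.76, SE 0.06). Libraries of the regions overlapped for all 9, by little for Fcrls and Siglech. The overlap covered most of the hypothalamus range for Selplg (19.7 to 71.0 CPM in the PFC and 18.5 to 38.9 CPM in the hypothalamus) and Gpr34 (6.14 to 31.6 CPM and 5.88 to 13.3 CPM). The highest hypothalamus values of Fcrls, Siglech, Tmem119 and Selplg were those of the library that stands apart. The next highest hypothalamus values were 26.2 CPM for Fcrls and 18.52 CPM for Siglech. These lay below the lowest PFC libraries, at 31.2 and 18.54 CPM, so both overlaps rest on that library.

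The C1q chains had log2 fold changes of 0.63, 0.63 and 0.71 for C1qa, C1qb and C1qc. C1qa was at 36.0, 66.6 and 107.4 CPM in the PFC and 26.7, 37.4 and 112.9 CPM in the hypothalamus, where the highest value was that of the library that stands apart. Of the receptor and signalling genes, Trem2 was at 10.2, 18.5 and 30.3 CPM and at 7.00, 10.5 and 31.9 CPM (0.77, SE 0.08), again with that library as the highest of the hypothalamus. Cd68 was at 5.66, 10.4 and 16.5 CPM and at 3.59, 5.01 and 7.54 CPM (1.08, SE 0.06). Without that library all 34 members kept their calls.

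Tlr2 went the other way, at 0.750, 1.56 and 3.06 CPM in the PFC and 1.72, 3.18 and 4.29 CPM in the hypothalamus (-0.94, SE 0.10, adjusted p = 2.16e-12). The other pattern recognition genes, Cd14 and Ly86, a partner of a Toll-like receptor homologue, were higher in the PFC (0.54 and 0.45). The smallest difference was that of Sall1, at 19.8, 30.02 and 43.8 CPM in the PFC and 13.6, 26.3 and 31.3 CPM in the hypothalamus (0.17, SE 0.06, adjusted p = 0.00546). On the TPM scale the mean of Sall1 was 19.3 in the PFC and 19.4 in the hypothalamus, so its direction depended on the scaling. Within cages 1 to 4 it was 0.02 (adjusted p = 0.8) and within cages 5 to 8 it was 0.29 (adjusted p = 0.00714). Spi1 (0.57) and Irf8 (0.63) were higher in the PFC.

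Other cell types differed between the dissections too. The markers of border-associated macrophages were higher in the PFC for 13 of 14 tested genes (summed level 41.4 to 160.6 CPM, against 22.2 to 85.2 CPM in the hypothalamus). Fibroblast genes were higher for 9 of 10, endothelial and mural genes for 10 of 11 with 1 lower, and oligodendrocyte genes were lower for 10 of 10. Of 10 astrocyte genes, which bear on Mertk, 3 were higher and 5 lower, and their sum was 5982 to 11290 CPM in the PFC (median 8380) and 4167 to 6622 CPM in the hypothalamus (median 5337). Of 10 neuronal genes 6 were higher and 3 lower, with summed medians of 9837 and 5747 CPM. Of the 30 partner genes 20 were higher and 6 lower, and of 17 disease-associated genes 10 were higher and 4 lower. The part of other cells in the members' regional difference was not tested.

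Most members differed between the extraction pools, and so between the cages that go with them. In the PFC 31 of 34 members were higher in the second pool than in the first and 0 were lower, against 24.9% of all tested genes called (13.4% higher). Csf3r (the granulocyte colony-stimulating factor receptor), Gpr34 and Tlr2 were not called. In the hypothalamus 22 were higher and 0 lower, against 17.4% of all tested genes (9.79% higher). The median log2 fold change of the members was 0.40 in the PFC and 0.28 in the hypothalamus, beside -0.01 and 0.01 for all tested genes. Summed over the members, the level was 851.9 to 1606 CPM in the first pool of the PFC (median 961.7) and 908.6 to 1593 CPM in the second (median 1337). In the hypothalamus it was 560.8 to 806.4 CPM (median 594.2) and 640.5 to 978.5 CPM (median 745.6).

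Spi1 differed most in the PFC, at 1.47, 2.70 and 4.83 CPM in the first pool and 1.36, 5.02 and 6.13 CPM in the second (log2 fold change 0.78, SE 0.13, adjusted p = 2.05e-05). Tyrobp was at 11.8, 14.5 and 26.9 CPM and at 15.5, 24.1 and 28.5 CPM (0.61, SE 0.11, adjusted p = 6.15e-05). Cd68 was at 5.66, 8.95 and 14.1 CPM and at 8.73, 13.04 and 16.5 CPM (0.50, SE 0.09). The pools overlapped for all 34 members in both regions, as they did for all tested genes (0% without overlap), and the second pool had the higher median for each of these genes.

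Olfml3, a secreted matrix protein, was at 21.9, 27.5 and 42.8 CPM in the first PFC pool and 26.0, 39.3 and 49.1 CPM in the second (0.47, SE 0.08). Selplg was at 19.7, 30.1 and 59.2 CPM and at 28.6, 43.5 and 71.0 CPM (0.48, SE 0.08). Cx3cr1 was at 55.3, 72.0 and 111.0 CPM and at 69.1, 100.8 and 114.8 CPM (0.37, SE 0.07). The C1q chains were higher by 0.50 to 0.52, and Sall1, the member with the least regional difference, was at medians of 24.0 and 33.5 CPM in the PFC pools.

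In the hypothalamus Tyrobp had the smallest p-value, at 8.15, 9.06 and 12.9 CPM in the first pool and 10.7, 13.3 and 32.4 CPM in the second (0.54, SE 0.11, adjusted p = 0.00123). Fcgr3 was at 6.09, 7.22 and 11.1 CPM and at 8.18, 9.97 and 15.02 CPM (0.47, SE 0.11), and Trem2 at 7.00, 8.65 and 10.9 CPM and at 8.98, 11.5 and 31.9 CPM (0.49, SE 0.11). Laptm5 was at 19.8, 23.4 and 29.5 CPM and at 25.5, 29.5 and 38.0 CPM (0.28, SE 0.07). C1qc was at 22.4, 27.4 and 36.6 CPM and at 26.1, 36.4 and 74.6 CPM (0.40, SE 0.10), and Cd68 at 3.59, 4.46 and 5.30 CPM and at 3.87, 5.81 and 7.54 CPM (0.35, SE 0.09). Of the 4 receptors for growth factors, TGF-beta and apoptotic cells, Csf1r was called (0.19, adjusted p = 0.0416) and Mertk (0.07), Tgfbr1 (0.07) and Csf3r (-0.05) were not. The library that stands apart is in the second pool, and without it 19 members were called, beside 13.2% of all tested genes, with Fcer1g, Ctss and Cd14 no longer among them (adjusted p of 0.0511, 0.0661 and 0.0517).

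**Figure D4:**
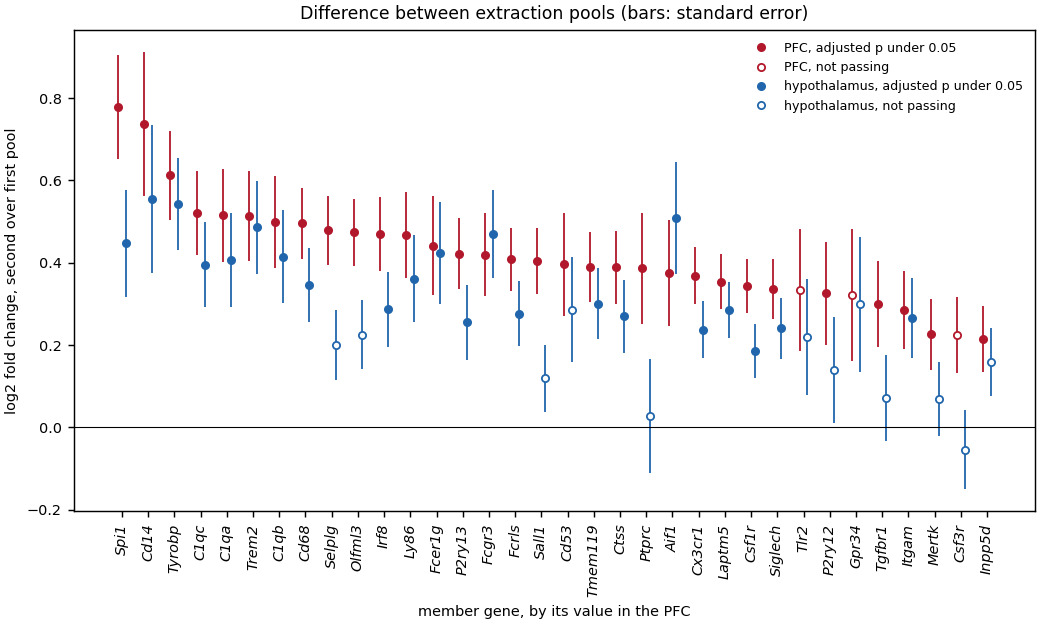
Log2 fold change of the second over the first extraction pool (points, with SE) for the 34 microglia genes in the PFC and the hypothalamus, ordered by the PFC value; filled points have an adjusted p under 0.05. The PFC values are all above 0, with Spi1 (0.78) and Cd14 (0.74) highest, and 31 are filled in the PFC and 22 in the hypothalamus.

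A difference of the pool effect between the regions, a term added after seeing the data, was not found by edgeR or DESeq2 for any member (0 called, 4 at an unadjusted p under 0.05 beside 11.8% of all tested genes, smallest adjusted p = 0.258 for Sall1 in edgeR, 0.606% of all tested genes called). The voom procedure called 7 members in that test (Selplg, Olfml3, Tgfbr1, C1qa, C1qc, Spi1 and Sall1), all with the larger effect in the PFC, and 10.5% of all tested genes. Markers of other cells moved with the pool as well. In the PFC, 10 of 10 astrocyte genes were higher in the second pool (summed level 5982 to 9668 CPM and 7520 to 11290 CPM), as were 9 of 10 oligodendrocyte genes, 11 of 14 genes of border-associated macrophages, 8 of 10 fibroblast genes and 5 of 6 red blood cell genes, while 2 of 10 neuronal genes were lower.

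In the hypothalamus, 5 of 10 astrocyte genes, 1 of 10 oligodendrocyte genes, 3 of 6 red blood cell genes and 0 of 14 genes of border-associated macrophages were higher in the second pool. Red blood cell genes summed to 71.0 to 362 CPM in its first pool and 129.9 to 748 CPM in its second. The part of these cells in the members' shift was not tested. Of the 30 partner genes, 14 were higher and 2 lower in the second pool of the PFC, with Axl, a relative of Mertk (0.42), and Adgrg1, an adhesion receptor (0.36), among the higher. Of 17 disease-associated genes, 10 were higher, led by Cd9 (0.55), Cd63 (0.60) and Apoe (0.66).

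Replicate 5 of psilocybin at 4 weeks in the hypothalamus differed from its group in opposite directions for different members. Aif1 was at 16.7 CPM against 3.42 to 5.17 CPM in the other 7 libraries, Trem2 at 31.9 against 7.40 to 12.3 CPM, and Tyrobp at 32.4 against 8.21 to 13.1 CPM. All 3 chains of C1q were high, C1qa at 112.9 against 32.05 to 49.7 CPM. Mertk was low at 6.59 against 14.5 to 23.0 CPM, as were Ptprc at 1.84 against 2.98 to 8.37 CPM, Tgfbr1 at 16.5 against 29.99 to 38.2 CPM and Sall1 at 13.6 against 21.3 to 30.9 CPM. The remaining low members were Inpp5d, Csf3r, P2ry12 and Itgam, and 10 members, Cx3cr1 and Csf1r among them, lay within the range of the others.

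Gene length went with these directions: the median exonic length was 2123 bases for the 16 members above the other libraries, 2771 bases for the 10 within and 5144.5 bases for the 8 below. Disease-associated genes summed to 8061 CPM in this library against 2397 to 3427 CPM in the others, red blood cell genes to 747.9 against 70.8 to 297.2 CPM, lymphocyte genes to 12.96 against 4.04 to 8.18 CPM and neuronal genes to 3890 against 5052 to 5982 CPM. Outside the range of the others were also the partner genes (4521 against 3172 to 3894 CPM), inflammatory genes (44.9 against 31.4 to 37.5 CPM), oligodendrocyte genes (10490 against 6427 to 9542 CPM) and, just above it, oligodendrocyte precursor genes (439 against 352.8 to 437.5 CPM). The other 6 lists lay within the range of the other libraries, among them the border-associated macrophage genes (45.2 against 27.9 to 85.0 CPM). The part of RNA quality or of other cells in these values was not tested.

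**Figure D5:**
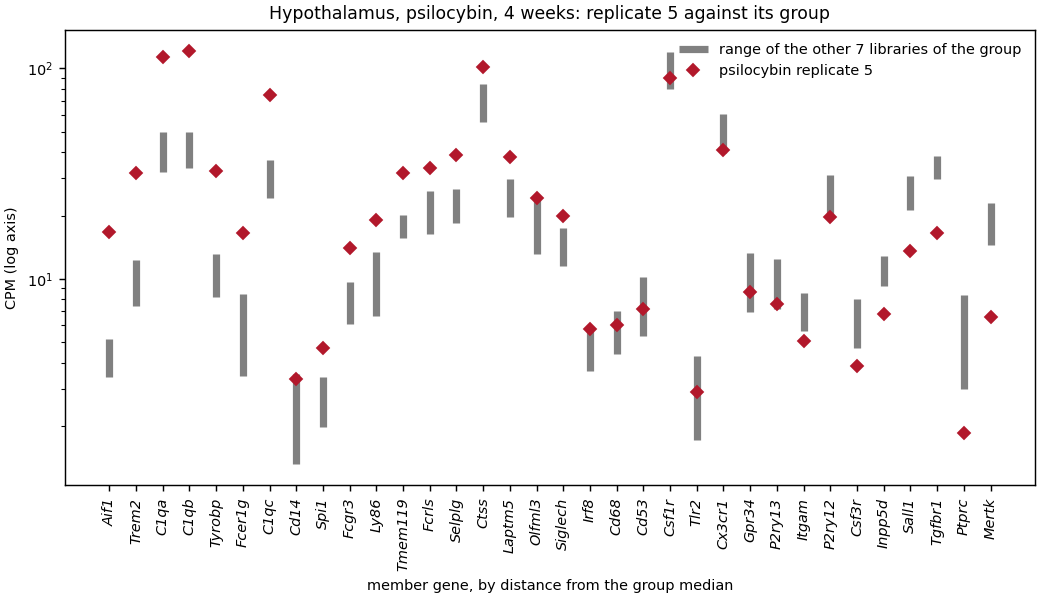
CPM (log axis) of the 34 microglia genes in replicate 5 of psilocybin at 4 weeks in the hypothalamus (diamonds), with the range of the other 7 libraries of that group as lines. Diamonds lie above the lines for 16 genes, led by Aif1, Trem2 and C1qa, and below them for 8, with Mertk lowest relative to its group.

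Some members overlap genes on the opposite strand: Cx3cr1 with Wdr48, Ttc21a and Gm33858, P2ry12 and P2ry13 with Med12l, and Gpr34 with Cask. The libraries were made with a stranded kit, and the study's methods required both ends of a pair on the same strand. Whether that had to be the strand of the gene is not given in the sources used here. The values of these 4 genes may thus include reads of their partners.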

How the data were processed

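Poly-A RNA of both regions was sequenced as stranded paired-end libraries. The authors deposited whole-number counts per gene, without normalization or filtering, and per the labels each sample is 1 region of 1 mouse. The submitters' processing notes name bcl2fastq 2.20.0, STAR 2.7.2b, featureCounts 1.6.2 and GRCm38 (mm10). Of the 64 libraries, the 62 that reached 1000000 counted reads were used, and no pair of libraries held identical counts (0 pairs). Symbols were found for 55141 of 55401 gene IDs. Counts bound precision most for the lowest members, such as Tlr2 and Spi1.

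The filterByExpr function (by group, minimum count 10) kept 18971 genes. TMM scaling, a robust quasi-likelihood fit of group and extraction pool over all 8 groups (52 residual degrees of freedom) and its F tests were run in edgeR 4.0.16 (R 4.3.3), with Benjamini-Hochberg adjustment over all 18971 genes and calls at an adjusted p under 0.05. CPM values are TMM-scaled, and TPM was computed from counts and the gene lengths in the table. DESeq2 1.42.0 and the model of the study were run as alternatives on all 62 libraries. The latter was voom with quality weights and the animal as a correlated block, in limma 3.58.1. The study dropped a further library, rich in immune and wound healing transcripts, that its methods do not name. Other alternatives were RLE size factors, no filter, no pool term, the groups of a contrast alone and the cage or animal as a block. Each library of the compared groups was also left out in turn. The code was tested on simulated data.

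The replicate number is the cage in the labels, and each cage gave 1 mouse per treatment and time, so the numbers pair the samples by cage. Deviations from the group means correlated at a mean r of 0.0806 between same-cage libraries in the PFC, 0.0723 in the hypothalamus (45 pairs each) and 0.0854 between the regions of 1 mouse (30 pairs).

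Values are given for the called members with the 6 smallest p-values in a comparison, or the 3 smallest where none was called, and for Cx3cr1, P2ry12, Tmem119, Csf1r, C1qa, Trem2, Cd68, Spi1 and Sall1. Others, such as Cd14, Gpr34 and Inpp5d, were named after their values were seen. From 14 lists of partner genes and markers of other cells, up to 3 genes with the smallest p-values are named. The members and the lists were chosen with earlier results of these data known. P-values measure the spread between libraries of these mice, and both regions of a mouse entered the main fit as separate libraries. For the pool comparisons they do not measure the spread between extractions, since each side is a single pool.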

Additional observations from a re-analysis of the deposited data

Results flagged for a closer look

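In each group of libraries, the highest and the lowest library of each member were compared with the rest by Dixon's ratio of the gap to the range. Of 272 groups of values, 22 held a library beyond the 95% limit, and chance alone marks about 1 in 20.

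Replicate 5 of psilocybin at 4 weeks in the hypothalamus accounted for 11 of the 22. It was high for Aif1 (16.7 CPM, others 3.42 to 5.17), Trem2 (31.9, others 7.40 to 12.3), Tyrobp (32.4, others 8.21 to 13.1), Fcer1g (16.6, others 3.46 to 8.48), C1qa (113, others 32 to 49.7), C1qb (121, others 33.7 to 49.7) and C1qc (74.6, others 24.2 to 36.9). It was also high for Tmem119 (32 CPM, others 15.6 to 20.2), Selplg (38.9, others 18.5 to 26.6) and Fcgr3 (14.1, others 6.09 to 9.69), and low for Tgfbr1 (16.5, others 30 to 38.2).

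Replicate 6 of psilocybin at 3 h in the hypothalamus was high for P2ry12 (28.6 CPM, others 17.3 to 21.8), Siglech (18.2, others 11.7 to 14.6) and Itgam (8.26, others 4.47 to 6.09). Replicate 6 of saline at 4 weeks in the PFC was high for Csf3r (13.6 CPM, others 8.67 to 10.8) and Inpp5d (33.1, others 23 to 27.6). Replicate 6 of saline at 4 weeks in the hypothalamus was high for Mertk (21 CPM, others 15.6 to 17.8) and Cd14 (4.3, others 1.34 to 2.29), and replicate 3 of that group for Ptprc (7.92 CPM, others 4 to 5.47). Cd14 was high in 3 more libraries: replicate 5 of psilocybin at 3 h in the PFC (11.5 CPM, others 2.18 to 5.39), replicate 5 of psilocybin at 3 h in the hypothalamus (5.51, others 1.54 to 3.26) and replicate 8 of psilocybin at 4 weeks in the PFC (4.3, others 1.58 to 2.71).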

How the results depend on the processing

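Of 964 values of named members under 12 settings, 961 kept their direction. The 3 that reversed were small: Sall1 after psilocybin in the PFC at 4 weeks (-0.00339 within cages 1-4) and Aif1 after psilocybin in the hypothalamus at 4 weeks (-0.0251 within cages 1-4, -0.00931 with voom). Regional and pool counts stayed within 1.5 times under each setting that could be fitted, with Sall1 losing its regional call with no filter and within cages 1-4. For the time effect in the PFC of saline mice (4 members called), the count was 2 with no pool term, 1 with only the groups of the contrast, 7 without replicate 5 of psilocybin at 4 weeks in the hypothalamus, 7 without both low-weight libraries, and 7 and 0 within cages 1-4 and 5-8. The share of all tested genes called moved too, from 4.72% to 3.37%, 1.54%, 8.25%, 9.98%, 5.33% and 0.232% in that order. For psilocybin mice in the PFC (5 called) it was 3 with no pool term (3.51% of all tested genes), 10 with only the groups of the contrast (6.47%), 13 with voom (19.1% of all tested genes called, against 5.96% in edgeR), 9 without that hypothalamus library (11.3%), and 3 and 0 within cages 1-4 and 5-8 (4.23% and 0.559%). In the hypothalamus of saline mice (1 called, 0.685% of all tested genes) it was 2 with only the groups of the contrast (3.35%) and 2 with voom (7.25% of all tested genes), where Siglech (higher) joined Mertk, 1 within cages 1-4 (0.0843%) and 0 within cages 5-8 (0.0633%). The voom procedure gave 3 in place of 0 for psilocybin in the PFC at 3 h (6.49% of all tested genes) and 7 in place of 0 for the difference of the pool effect between regions (10.5%). The within-cage settings and the 2-library setting were chosen after seeing the data. Single settings hold fewer libraries or estimate the spread otherwise, and the cause of each change was not tested.

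Each library of the compared groups was left out in turn. For the time effect in the PFC this gave 2 to 8 members in saline mice and 4 to 5 in psilocybin mice (3.79% to 6.83% of all tested genes). In saline mice 2 came without replicate 4 of saline at 3 h and 8 without replicate 5. These fits called 2.54% and 7.28% of all tested genes. Libraries of other groups, which share the fit, are not in these ranges. The psilocybin count without the hypothalamus library that stands apart, given above, is higher. For time in the hypothalamus the ranges were 1 to 1 in saline mice (0.343% to 0.627%) and 1 to 2 in psilocybin mice (0.696% to 1.94%, Trem2 added without replicate 7 of psilocybin at 4 weeks). The ranges were 26 to 33 (21.1% to 31.5% of all tested genes) and 18 to 23 (11.7% to 22.1%) for the pool in PFC and hypothalamus, 34 for the region (75.5% to 78.8%) and 0 for psilocybin (0% to 0.058%). With the cage or the animal as a replicate block, 4, 1, 4 and 1 members were called for time (saline then psilocybin, PFC then hypothalamus, with 4.19%, 0.553%, 5.2% and 1.01% of all tested genes), 34 for the region (75.2%) and 0 for psilocybin (0% to 0.0105%), and Cd14 (-0.76, adjusted p = 0.0723) was the 1 call that changed. Fcgr3 and Selplg in saline mice of the PFC lost their calls with no pool term (adjusted p = 0.116 and 0.133). Members at a few CPM, such as Tlr2, Cd14 and Spi1, rest on few reads, which limits the differences that can be seen in them.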

Other observations

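Among genes of other cells, Gpr17, a receptor of oligodendrocyte precursors that are about to differentiate, was lower at 4 weeks than at 3 h in all 4 comparisons. Its log2 fold changes were -0.80 (saline) and -0.65 (psilocybin) in the PFC and -0.49 and -0.52 in the hypothalamus (adjusted p = 4.4e-09, 3.09e-06, 0.00102 and 0.000141 in edgeR). Slc2a1, the glucose transporter of the blood-brain barrier, was lower at 4 weeks in the PFC of saline mice (-0.61) and psilocybin mice (-0.69) and in the hypothalamus of psilocybin mice (-0.41, adjusted p = 0.0223). Nfkbia, an inhibitor of NF-kB, was lower at 4 weeks in the PFC of both treatments (-0.56 and -0.62) and was the 1 gene called of 11 tested inflammatory genes there. Of 15 interferon response genes, Ifi27l2a was higher at 4 weeks in the hypothalamus of psilocybin mice (1.07, adjusted p = 0.0351).

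Psilocybin was compared with saline in the remaining lists as well. Of 15 tested genes of the interferon response, 7 of neutrophils and monocytes, 5 of lymphocytes, 6 of red blood cells, 10 of fibroblasts, 10 of astrocytes, 10 of oligodendrocytes, 6 of oligodendrocyte precursors, 11 of endothelium and mural cells and 10 of neurons, edgeR called 0 in each of the 4 comparisons, with at most 2 genes of a list at an unadjusted p under 0.05.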
